A study of Capra hircus with 2 samples.

Results

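The cells described here were skin cells of Liaoning cashmere goats rich in KRT35, a type I hair keratin of the hair shaft. They held few or no counts of division genes. They were chosen by their own counts, so KRT35 and the other genes of the rule are no finding. A kept cell was taken when KRT35 reached at least 20 per 10000 of its UMIs (unique molecular identifiers, 1 per captured RNA molecule) with at least 5 KRT35 UMIs. It also had to hold fewer than 3 UMIs of the division genes TOP2A, CENPF, UBE2C and BIRC5 together, and at least as many KRT35 UMIs as UMIs of TCHH, KRT25 and KRT27, genes of the inner root sheath, together. The rule took 189 of 13051 kept cells, 48 of 3443 in the library CT-LCG and 141 of 9608 in the library FT-LCG. These are shares of 1.39% (exact 95% binomial interval 1.03 to 1.84) and 1.47% (1.24 to 1.73). The division genes had 0 UMIs in 46 of the 48 CT-LCG cells and in 108 of the 141 FT-LCG cells.

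In the growing follicle, called anagen, cells leave the dividing matrix around the dermal papilla, move upward and become the medulla, cortex or cuticle of the shaft or the inner root sheath that surrounds it. Cells bound for the cortex make hair keratins first, as paired type I and type II filaments, and later the cysteine-rich keratin-associated proteins (KRTAP genes) that fill the space between filaments and are cross-linked as the fibre hardens. Wnt signals read out through LEF1, BMP signals, and transcription factors such as HOXC13, FOXN1 and MSX2 are known for their part in this programme.

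Skin was taken over the shoulder blade of healthy goats in anagen, dissociated and sequenced with the 10x 3′ (V3) kit, 1 library from each animal, with dead and red blood cells removed. The study set a goat of coarser cashmere beside one of finer cashmere, which the library names stand for, but the sample labels give no fibre type and tie neither library name to a sample. Each library is therefore described alone, levels are given side by side, and no test between them is possible. All intervals cover counting error only. Because 1 molecule gives 1 count at its 3′ end, levels needed no correction for gene length. Of the barcodes of kept cells, 11 sequences were shared by both libraries, and 0 of them belonged to the chosen cells.

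The chosen cells differed in depth between the libraries. In CT-LCG they held from 739 to 34759 UMIs (median 2001.5) and a median of 839 genes. In FT-LCG they held from 794 to 57969 UMIs (median 14190) and a median of 2996 genes. The median over all kept cells was 2314 UMIs for CT-LCG and 6121.5 for FT-LCG, so the chosen cells were deeper than their library in FT-LCG and not in CT-LCG. Their UMIs summed to 186262 (CT-LCG) and 2073028 (FT-LCG). The deepest CT-LCG cell alone gave 18.7% of the CT-LCG sum, 29.7% of its KRT35 UMIs and 42.2% of its ID1 UMIs. It also gave 50.4% of the UMIs of LOC102176726, 36.1% of BAMBI, 32.0% of LEF1 and 30.2% of HOXC13, whose levels without it were 4.36, 2.57, 1.12 and 1.98 per 10000. The deepest FT-LCG cell gave 2.80% of the sum there.

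KRT35 itself ranged over the cells from 20.4 through a median of 85.4 to 234.7 per 10000 in CT-LCG, and from 20.8 through 89.4 to 422.2 in FT-LCG. Summed, it stood at 109.7 per 10000 in both libraries (95% Poisson interval 105.0 to 114.6 in CT-LCG and 108.3 to 111.2 in FT-LCG), and at 0.340 and 0.735 in all other kept cells. Without its deepest cell the CT-LCG level was 94.8. Just inside the limit stood 3 cells of CT-LCG and 6 of FT-LCG with 20 to 30 per 10000. Just outside it, with at least 5 KRT35 UMIs, the highest cell had 17.3 per 10000 for CT-LCG and 17.2 for FT-LCG, among 3 and 33 such cells. A larger number missed the count of UMIs alone, since 24 CT-LCG and 89 FT-LCG cells met 20 per 10000 with under 5 KRT35 UMIs. Both KRT35 limits were met by 54 CT-LCG and 163 FT-LCG cells, of which 2 and 22 held 3 or more division UMIs and are called cycling KRT35 cells below. Another 4 CT-LCG and 0 FT-LCG cells held more inner root sheath UMIs than KRT35 UMIs. Few of the chosen cells thus lay near the limit on the KRT35 level, but 13 of 48 CT-LCG cells and 12 of 141 FT-LCG cells held only 5 to 9 KRT35 UMIs. A UMI of TCHH, KRT25 or KRT27 was held by 42 of the CT-LCG and 91 of the FT-LCG cells. In 7 and 1 of them these UMIs came within 2-fold of the KRT35 UMIs.

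The markers given for these cells were KRT35, MT4, KRTAP11-1 and KRTAP3-1, and they did not mark them equally. MT4, a metallothionein of stratified epithelium, had a UMI in 36 of 48 CT-LCG cells and 124 of 141 FT-LCG cells. KRTAP11-1, a high-sulphur keratin-associated protein, had a UMI in 13 and 51 cells. KRTAP3-1 had a UMI in 1 cell of CT-LCG and 22 of FT-LCG. At least 1 of these 3 markers was seen in 38 and 131 cells, and all 3 in 1 and 14. None of the 3 was seen in 10 cells of either library. Beyond KRT35 the cortex label thus rested mostly on MT4, and most cells held no KRTAP3-1 UMI, so the cells are called KRT35-high cells from here on.

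Free RNA sets a floor for such shares. Endothelial cells, which should make no hair protein and were taken here as cells with at least 5 UMIs of PECAM1, PLVAP, VWF, SELE and CDH5 (31 CT-LCG cells, median 4777 UMIs, and 125 FT-LCG cells, median 3827), held a KRT35 UMI in 25.8% and 23.2% of cells. Their KRTAP11-1 shares were 12.9% and 11.2%, against 27.1% and 36.2% in the KRT35-high cells, and 12.9% and 22.4% of them held an MT4 UMI and 38.7% and 44.0% a LOC102184223 UMI. In all other kept cells the KRTAP11-1 shares were 18.5% and 17.7%. After each cell was thinned to 1000 UMIs, which left out 5 shallower KRT35-high cells of CT-LCG and 3 of FT-LCG, KRTAP11-1 was present in 18.6% of KRT35-high cells and 3.45% of endothelial cells in CT-LCG, and in 18.8% and 5.13% in FT-LCG. Both libraries then gave nearly the same share of KRT35-high cells with KRTAP11-1. MT4, summed, stood at 0.212 per 10000 in the endothelial cells of CT-LCG and 0.401 in those of FT-LCG, against 36.7 and 29.0 in the KRT35-high cells.

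**Figure D1:**
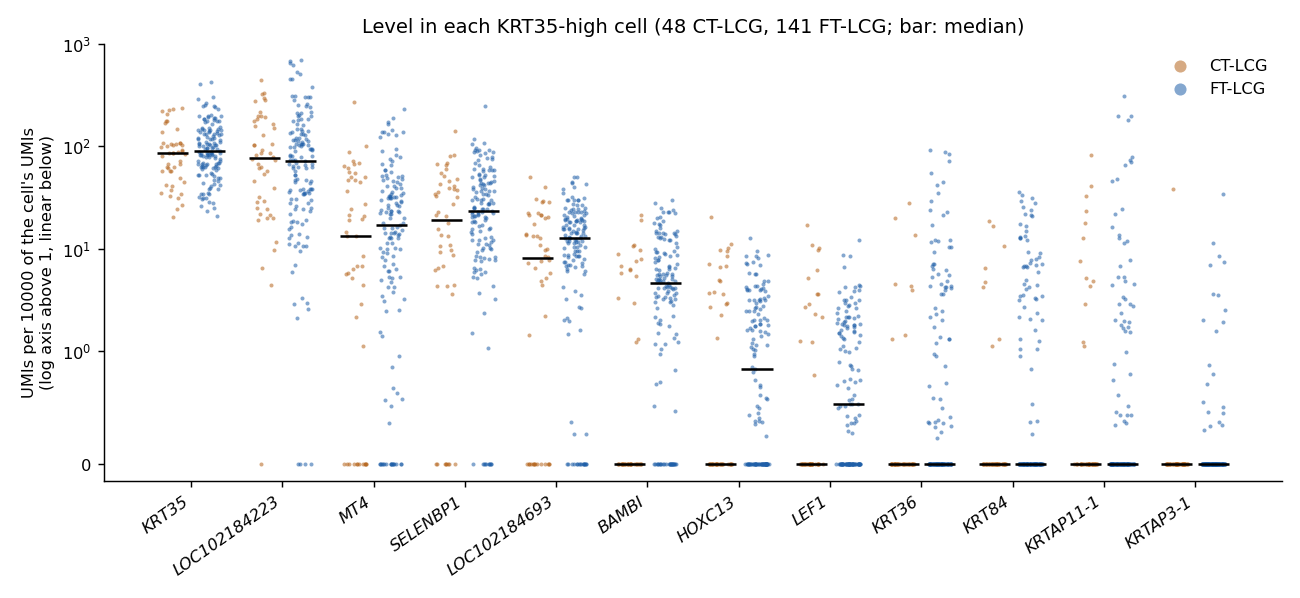
Level of 12 genes in each KRT35-high cell, in UMIs per 10000 of the cell's UMIs (log axis above 1, linear below), for CT-LCG (brown, 48 cells) and FT-LCG (blue, 141 cells), with a bar at the median. KRT35 lies above 20 by the rule, LOC102184223 has medians of 76.7 and 71.6, and KRTAP11-1 and KRTAP3-1 have a median of 0 in both libraries while single cells exceed 30.

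LOC102184223, which carries no symbol in the deposited gene list, was as abundant as KRT35: 135.3 per 10000 in CT-LCG (130.1 to 140.7; 100.7 without the deepest cell) and 103.7 in FT-LCG (102.4 to 105.1). It had a UMI in 47 of 48 and 137 of 141 cells, with medians over cells of 76.7 and 71.6 and highest values of 445.8 and 690.1. All other kept cells held 0.972 and 1.33, so the log2 ratio was 7.12 and 6.29. In the RefSeq gene order of the goat assembly ARS1.2 the gene lies next to KRT84, with KRT82 on the far side of KRT84, and LOC102184693 and LOC102185436 follow on its other side, so 3 unnamed genes sit beside 2 named type II hair keratins. LOC102184693 was the other widely found member of that row, at 10.3 per 10000 (8.90 to 11.9) in CT-LCG and 14.3 (13.8 to 14.8) in FT-LCG, with a UMI in 34 and 125 cells. LOC102185436 was found in 15 and 38 cells, and 1 FT-LCG cell gave 72.6% of its UMIs.

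The named hair keratins were found in fewer cells. KRT36, a type I hair keratin, stood at 1.23 per 10000 (0.783 to 1.85) in 8 cells of CT-LCG and at 6.12 (5.78 to 6.46) in 66 cells of FT-LCG, where 1 cell gave 19.4% of its UMIs. KRT84, a type II hair keratin, stood at 1.23 (0.783 to 1.85) in 8 cells and at 4.22 (3.94 to 4.51) in 58 cells, and 1 CT-LCG cell gave 43.5% of its 23 UMIs, without which the level was 0.801. In all other kept FT-LCG cells they stood at 0.0348 and 0.0400 per 10000. KRT38, KRT39 and KRT40, further type I hair keratins, had from 0 to 6 UMIs in either library. Of 11 type I and 7 type II hair keratin symbols looked for, 6 and 2 were in the deposited gene list. Other hair keratins, such as KRT31, KRT85 and KRT86, could therefore not be followed by name. Whether unnamed features stand for them was not tested.

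Of the genes listed for the hair cuticle, the scale layer of the shaft, KRT84, described above, was found in the most cells. KRT32, a cuticle keratin, had 36 UMIs in CT-LCG, all from 1 cell of 2831 UMIs. The same cell held 105 of the 133 UMIs of S100A3, a cysteine-rich calcium-binding protein of the cuticle, and 6 of the 7 UMIs of KRT82, another cuticle keratin, beside 50 KRT35 and 76 MT4 UMIs. In FT-LCG the cell with the most KRT32 (8 UMIs) was also the one with the most S100A3 (163 UMIs of 473), and S100A3 was found in 23 cells. Summed over the chosen cells, S100A3 stood at 7.14 per 10000 for CT-LCG and 2.28 for FT-LCG, and at 1.53 and 1.498 without the cell that held the most. GPRC5D, a receptor of hard keratinised tissues, owed 91.3% of its 126 FT-LCG UMIs to 1 cell.

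Against all other kept cells of the library, 11558 genes with at least 50 UMIs could be compared in CT-LCG and 13575 in FT-LCG, leaving out the genes of the rule. Of these, 2095 (18.1%) were at least 2-fold higher in the KRT35-high cells of CT-LCG and 2426 (21%) at least 2-fold lower. In FT-LCG 1209 (8.91%) were higher and 3579 (26.4%) lower. The rule chose the cells on KRT35, and a gene expressed along with it was bound to differ, so nothing is read from the counts themselves. In CT-LCG the chosen cells held 0.668% of the library's UMIs, so a gene with few UMIs can pass 2-fold through a single one. With at least 5 UMIs expected among the KRT35-high cells, a limit set after the counts were seen, 297 CT-LCG and 793 FT-LCG genes were higher. Over all genes compared, the CT-LCG and FT-LCG log2 ratios had medians of -0.00 and -0.16.

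The 15 genes furthest above all other kept cells in both libraries held the unnamed keratin neighbours LOC102184223 and LOC102184693, KRT84, MT4 and S100A3, the regulators LEF1, HOXC13 and BAMBI, and the enzymes HEPHL1, a ferroxidase, and ASS1, which makes argininosuccinate in arginine synthesis. EFHD1, a mitochondrial calcium-binding protein, FAM49A, FAM69C, LOC102181374 and LOC102169702 completed them. LOC102181374 had the ratio furthest from 0 in the weaker of its libraries, with 3.54 per 10000 against 0.0451 in CT-LCG (log2 ratio 6.30) and 2.03 against 0.0150 in FT-LCG (7.07), and a UMI in 18 and 43 cells. ASS1 stood at 3.06 and 4.34 per 10000, with log2 ratios of 5.58 and 4.87. HEPHL1 was sparse, with 17 and 125 UMIs, but its log2 ratios were 5.81 and 6.25. With each cell weighted equally, log2 ratios in CT-LCG were smaller, at 4.66 for LOC102184223, 4.27 for MT4, 3.72 for LEF1, 4.76 for HOXC13 and, outside the 15, 1.73 for KRTAP11-1. In FT-LCG they were smaller too, at 5.39, 4.77, 4.47, 4.05 and 3.07 for the same genes in that order. In CT-LCG 1 cell gave 70.0% of the 60 EFHD1 UMIs, and 1 gave 80% of the 15 FAM49A UMIs.

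The 10 genes furthest below were genes with no symbol (LOC108635657, LOC102185235, LOC108635596, LOC108635658, LOC102172960, LOC106502890 and LOC108635659) and PAEP, LOR and KRT4. All but LOR and KRT4 had 0 UMIs in the KRT35-high cells of CT-LCG, where their ratios rest on the 0.5 UMI added to each sum. With 3 UMIs over the group as the floor, their CT-LCG bounds ran from at least 3.877-fold (LOC106502890) to 14.9-fold lower. LOR and KRT4, with UMIs in both groups, were 32.6-fold and 23.5-fold lower in CT-LCG. LOR, loricrin of the cornified envelope, stood at 0.161 per 10000 against 5.25 in CT-LCG and at 0.294 against 7.57 in FT-LCG. KRT4, a keratin of mucosal epithelium, stood at 0.107 against 2.53 and 0.0289 against 0.947. LOC108635658 was at 0 UMIs in the KRT35-high cells of CT-LCG, at least 14.9-fold lower when 3 UMIs over the group are taken as the floor, and at 9 UMIs in FT-LCG against 1.4 per 10000 elsewhere. In CT-LCG 1 other cell gave 91.5% of the LOC108635658 UMIs outside the chosen cells and 1 gave 82.0% of those of LOR.

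All 9 cornified envelope genes compared were at least 2-fold lower in both libraries, with median log2 ratios of -3.02 and -4.26. Of 6 epidermal keratins, 5 were at least 2-fold lower in each library, and of all genes compared 21% (CT-LCG) and 26.4% (FT-LCG) were. KRT10, of suprabasal epidermis, stood at 29.6 per 10000 against 235.8 in CT-LCG and 8.97 against 161.5 in FT-LCG, yet every KRT35-high cell held at least 1 KRT10 UMI. Across the cells KRT10 fell with the number of UMIs (Spearman rho -0.85 over 48 cells and -0.67 over 141 cells). In the 41 CT-LCG cells under 5000 UMIs it was at 55.9 per 10000, beside 41.3 in endothelial cells of the same depth, and in the 7 deeper cells at 8.67. In FT-LCG the 43 cells under 5000 UMIs had 25.4, beside 17.2 in endothelial cells of that depth, and the 98 deeper cells had 8.12. Of the 1859 KRT10 UMIs there 3 deep cells held 862, and without them the other 95 deeper cells stood at 3.86 and all the others together at 4.95. Endothelial cells of 5000 UMIs or more held more KRT10, at 97.9 and 45.1. The part of free RNA in the KRT10 of these cells was not tested. KRT19 was the exception among the epithelial keratins in FT-LCG, at 2.78 against 1.23 per 10000 in 70 cells, while CT-LCG had 6 UMIs (0.322 against 0.603).

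**Figure D2:**
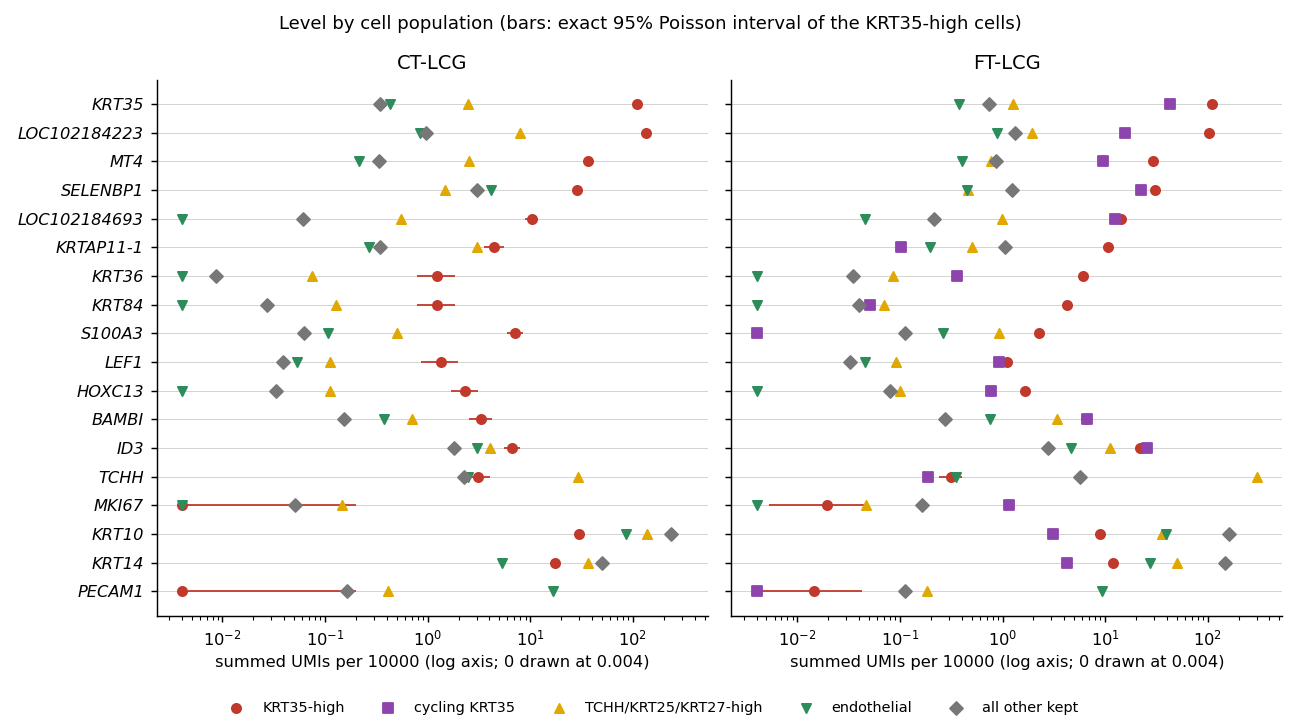
Summed level of 18 genes, in UMIs per 10000 on a log axis, in the KRT35-high cells (red, with exact 95% Poisson intervals), cycling KRT35 cells (FT-LCG only), cells rich in TCHH, KRT25 and KRT27, endothelial cells and all other kept cells, with 0 drawn at the left edge. LOC102184223, MT4 and SELENBP1 lie far to the right in the KRT35-high cells of both libraries, and KRT10 and KRT14 lie to the left of all other kept cells.

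Most markers of other cell types were at or near 0. All 8 dermal papilla genes were at 0 in CT-LCG and 7 of them in FT-LCG, where CRABP1 had 9 UMIs. All 6 melanocyte genes were at 0 in CT-LCG, while PMEL and DCT had 3 UMIs each in FT-LCG. The 5 endothelial genes summed to 2 and 7 UMIs. SRGN, a proteoglycan of immune cell granules, gave 47 UMIs in CT-LCG, all in 1 cell, while PTPRC, CD74, CD3E, CD3D and CPA3 were at 0 there. DCN, decorin of connective tissue, was higher than elsewhere, at 1.66 per 10000 against 0.458 in CT-LCG and 1.51 against 0.386 in FT-LCG. One CT-LCG cell gave 74.2% of those UMIs, but 55 FT-LCG cells held DCN, and the cycling KRT35 cells of FT-LCG stood at 3.93. The collagens COL1A1 and COL3A1 and LUM had 0 UMIs in CT-LCG, while COL1A1 of FT-LCG stood at 0.0868 against 0.658 elsewhere. No doublet caller was run. The other types counted were dermal, dermal papilla, endothelial, immune, melanocyte and muscle, and epidermal genes were not among them. Leaving out cells with 3 or more UMIs of these types left 46 cells of CT-LCG and 105 of FT-LCG, or 47 and 133 with DCN not counted. ACTA2 led the muscle genes with 4 and 44 UMIs. The part of other cells' RNA in the DCN level was not tested.

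Of 27 transcription factors of the hair shaft compared in CT-LCG, 10 were at least 2-fold higher and 9 at least 2-fold lower, beside 18.1% and 21% of all genes compared. Of 28 in FT-LCG, 8 were higher and 8 lower, beside 8.91% and 26.4% of all genes. These lists were drawn up with earlier results known, and nothing is read from their counts. LEF1, which carries the Wnt signal to hair keratin genes, stood at 1.34 per 10000 (0.869 to 1.98) in CT-LCG and 1.11 (0.971 to 1.26) in FT-LCG, against 0.0386 and 0.0323 in all other kept cells. It had a UMI in 15 and 84 cells, and its log2 ratios were 5.14 and 5.10. HOXC13, a homeobox regulator of hair keratins, stood at 2.31 (1.67 to 3.11) and 1.67 (1.5 to 1.86) in 19 and 88 cells, against 0.0332 and 0.0792 elsewhere (log2 ratios 6.13 and 4.4). Both genes were absent or nearly so in endothelial cells, where HOXC13 had 0 UMIs in either library.

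The homeobox genes MSX1 and MSX2 were at least 2-fold higher in both libraries. MSX2 stood at 1.56 against 0.124 per 10000 in CT-LCG and 0.767 against 0.127 in FT-LCG. MSX1 had log2 ratios of 3.86 and 3.38, FOXN1, a forkhead gene needed for the shaft to form, of 2.19 (5 UMIs) and 2.81 (97 UMIs), DLX2 of 2.05 (4 UMIs) and 3.23 (122 UMIs), and DLX3 of 1.27 and 2.28. On the lower side were GATA3, a regulator of the inner root sheath (log2 ratios -1.99 and -2.81), SOX9, of the outer root sheath and stem cells (-1.14 and -3.53), PRDM1 (-1.73 and -2.69) and ELF5 (-2.29 and -3.61). SOX4 had opposite signs, at 0.913 against 2.74 per 10000 in CT-LCG and 3.48 against 1.91 in FT-LCG, and the difference between libraries was not tested. CEBPB was the most abundant factor of the list, at 4.24 per 10000 for CT-LCG and 10.2 for FT-LCG, within 2-fold of all other kept cells in both.

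**Figure D3:**
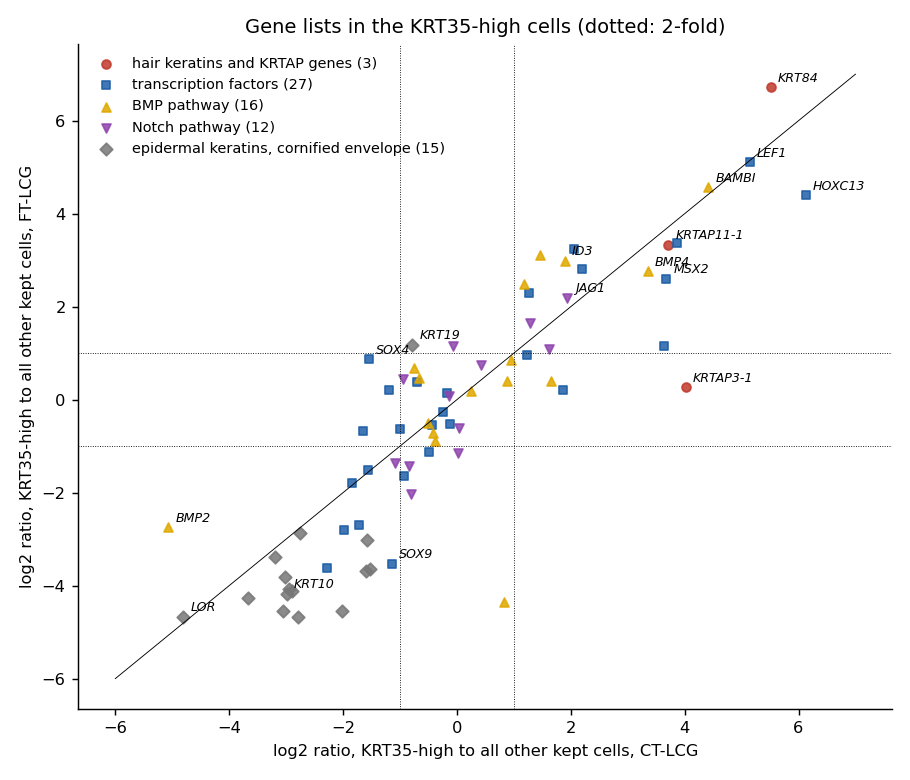
Log2 ratio of the summed level in KRT35-high cells to that in all other kept cells, CT-LCG on the horizontal and FT-LCG on the vertical axis, for genes of 5 groups with at least 50 UMIs in each library, with dotted lines at 2-fold and a line of equal ratios. LEF1, HOXC13, BAMBI and KRT84 lie at the upper right and epidermal genes at the lower left, while KRTAP3-1 is at 4.02 in CT-LCG (5 UMIs of 1 cell) and 0.27 in FT-LCG.

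Summed, the genes of BMP signalling reached 44.5 per 10000 in CT-LCG against 19.7 in all other kept cells, and 71.9 against 24 in FT-LCG. Of 16 members compared in CT-LCG, 6 were at least 2-fold higher and 1 lower, and of 18 in FT-LCG, 6 were higher and 3 lower, beside the same shares of all genes (18.1% and 21% for CT-LCG, 8.91% and 26.4% for FT-LCG). ID1, ID2 and ID3, which BMP signals induce and which block basic helix-loop-helix factors, led the list. ID3 stood at 6.66 per 10000 in CT-LCG (4.88 without the deepest cell) against 1.80, and at 21.9 in FT-LCG against 2.76. ID2 stood at 11.3 against 4.14 and at 8.38 against 0.974. ID1 was at 19.0 against 9.80 (13.5 without the deepest cell) and 30.0 against 16.7, log2 ratios of 0.95 and 0.85 that stayed within 2-fold.

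BAMBI, a pseudoreceptor that blocks BMP and TGF-beta receptors, stood at 3.27 per 10000 (2.51 to 4.21) against 0.154 in CT-LCG and 6.56 (6.22 to 6.92) against 0.275 in FT-LCG, with a UMI in 17 and 115 cells. SMAD7, an inhibitory SMAD, was at 1.07 against 0.488 and at 1.11 against 0.198, and SMAD6, its relative, had 1 UMI in CT-LCG and 39 in FT-LCG (log2 ratio 3.49). Among ligands, BMP4 was higher (0.644 against 0.0657 and 0.502 against 0.0740) and BMP2 lower (0 UMIs against 0.902, at least 5.6-fold lower with 3 UMIs as the floor, and 0.0531 against 0.371). NOG and GREM1, secreted BMP antagonists, were at 0 UMIs in both libraries.

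In the Wnt list 7 of 31 members compared in CT-LCG were at least 2-fold higher and 7 lower, and in FT-LCG 7 of 35 were higher and 10 lower. Of all genes compared, 18.1% and 21% were higher and lower in CT-LCG and 8.91% and 26.4% in FT-LCG. TCF7, a relative of LEF1, had log2 ratios of 3.65 (4 UMIs) and 1.15 (19 UMIs), and NKD1, an inhibitor that Wnt signals induce, of 2.99 (3 UMIs) and 2.23 (51 UMIs). Among ligands WNT10A stood at 0.483 and 0.497 per 10000 (log2 ratios 3.20 and 0.77), and WNT10B, with 1 and 41 UMIs, had a log2 ratio of 3.42 in FT-LCG. CTNNB1, beta-catenin itself, was within 2-fold, at 3.27 against 2.22 and 3.00 against 1.99. The secreted antagonist SFRP1 was at 0.304 against 1.01 in FT-LCG, and the stem cell receptor LGR5 had 0 and 13 UMIs.

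In the Notch list 3 of 12 members compared in CT-LCG were at least 2-fold higher and 1 lower, and in FT-LCG 6 of 15 were higher and 5 lower, beside 18.1% and 21% of all genes for CT-LCG, and 8.91% and 26.4% for FT-LCG. The receptor NOTCH1 (0.698 against 0.296 per 10000, and 1.59 against 0.506) and the ligand JAG1 (1.5 against 0.398, and 2.33 against 0.511) were higher together, and JAG1 had a UMI in 10 and 103 cells. Among targets, HEYL stood at 0.328 against 0.0302 in 43 cells of FT-LCG and had 6 UMIs in 2 cells of CT-LCG. HES1 was at 3.49 against 3.48 in CT-LCG and 1.42 against 3.15 in FT-LCG.

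Of 18 desmosome and junction genes, 4 were at least 2-fold higher and 3 lower in CT-LCG, where 18.1% and 21% of all genes were, and 5 higher and 6 lower in FT-LCG, where 8.91% and 26.4% were. GJA1, connexin 43, had a log2 ratio of 1.96 in both libraries, at 2.31 and 4.70 per 10000. Its level was similar in cells rich in TCHH, KRT25 and KRT27, described below (2.07 and 4.52), and in the cycling KRT35 cells of FT-LCG (4.58). DSG4, the desmoglein of the hair cortex, was sparse (2 and 23 UMIs) with log2 ratios of 2.09 and 4.01, whereas DSG1 and DSC1 of the upper epidermis were at -1.62 and -2.13 and at -2.74 and -2.64. In the hardening and differentiation list 8 of 28 members compared in CT-LCG were at least 2-fold higher and 9 lower, and in FT-LCG 11 of 31 were higher and 11 lower. Its summed level was below that of all other kept cells, at 152.9 against 242.1 per 10000 and 142.2 against 301.9. MT4 stood at 36.7 per 10000 (28.7 without the deepest cell) and 29.0, with log2 ratios of 6.77 and 5.06, the latter 5.79 without the 1 other cell that held the most KRTAP11-1 UMIs. SELENBP1, a selenium-binding methanethiol oxidase, stood at 28.2 (25.9 to 30.8) and 30.4 (29.6 to 31.1), in 40 and 131 cells, against 3.02 and 1.24 elsewhere. ODC1, the entry enzyme of polyamine synthesis, had log2 ratios of 0.87 and 1.38, and the amino acid transporter SLC7A5 of 1.69 and 2.30. PADI3 and TGM3, enzymes that modify and cross-link follicle proteins, stood at 0.215 and 0.913 in CT-LCG and 0.130 and 0.714 in FT-LCG. CRYM was at 0 UMIs in both.

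The 80 features of ribosomal protein genes summed to 3801 per 10000 in CT-LCG against 2276 in all other kept cells, and to 3784 against 2599 in FT-LCG. Of 78 compared, 5 (CT-LCG) and 2 (FT-LCG) were at least 2-fold higher and 0 were 2-fold lower, beside 18.1% and 8.91% of all genes higher and 21% and 26.4% lower. The other 73 and 76 lay within 2-fold, and the median log2 ratio of the list was 0.70 and 0.55. RPS12 led all of them at 200.4 and 182.5 per 10000. The cycling KRT35 cells of FT-LCG had a sum of 3337. Of 17 immediate early and stress genes, which dissociation can induce, 9 were at least 2-fold lower and 0 at least 2-fold higher in each library, where 21% (CT-LCG) and 26.4% (FT-LCG) of all genes were lower, among them JUN at 11.7 and 6.43 against 27.5 and 24.7.

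Cells rich in TCHH, KRT25 and KRT27 served as a comparison set. They were taken where these 3 genes reached 20 per 10000 and 5 UMIs and exceeded KRT35, with under 3 division UMIs, which gave 738 CT-LCG and 284 FT-LCG cells. Most were shallow, with medians of 1117 and 1293 UMIs, and the 738 CT-LCG cells held TCHH at 29.2 per 10000 beside 305.2 in FT-LCG, and KRT10 at 137.4, so the CT-LCG set was not a clean inner root sheath. Of the genes compared in CT-LCG, 227 of 3239 (7.01%) were at least 2-fold higher in the KRT35-high cells and 779 (24.1%) lower, and in FT-LCG 465 of 5587 (8.32%) and 517 (9.25%). The 8 furthest above were LOC102181374, SELENBP1, LOC102184223, HOXC13, MT4, LOC102184693, EFHD1 and SPTSSB. SELENBP1 stood at 28.2 against 1.47 per 10000 and at 30.4 against 0.463. The 8 furthest below held KRT74, a type II keratin of the inner root sheath, with 0 UMIs in the KRT35-high cells of both libraries against 186 and 180 UMIs, and PRR9, a proline-rich protein (0.376 against 9.52, and 0.270 against 54.5). IVL, KRT23, DSC1, LOC102168573, LOC102185401 and LOC102177231 were the others. IVL and LOC102185401 had 0 UMIs in the KRT35-high cells of CT-LCG, against 54 and 53 UMIs. With 3 UMIs over the group as the floor they were at least 3.09-fold and 3.0-fold lower there. Their ranks therefore rest on the 0.5 UMI added to each sum. HOXC13 had 43 UMIs against 12 in CT-LCG and 347 against 13 in FT-LCG. KRTAP11-1 had a UMI in 26.3% of the comparison cells of CT-LCG and 20.1% of those of FT-LCG. Its level was 4.46 against 3.02 per 10000 in CT-LCG, and 10.6 (7.04 without the cell that held the most) against 0.501 in FT-LCG. Depth differed between the sets as well, and its part in these differences was not tested.

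The cycling KRT35 cells met the same KRT35 limits. Only FT-LCG, with 22 of them (median 25769.5 UMIs), allowed a comparison, since CT-LCG had 2. There 249 of 4883 genes (5.1%) were at least 2-fold higher in the KRT35-high cells and 345 (7.07%) lower. The 8 furthest above were S100A3, KRTAP11-1, KRT84, EFHD1, LOC102185436, LOC102176726, LOC100861381 and KLK10. KLK10 had 58 UMIs against 0 in the cycling cells, at least 5.43-fold more with 3 UMIs over the group as the floor. Its rank therefore rests on the 0.5 UMI added to each sum. KRTAP11-1 stood at 10.6 per 10000 against 0.103, KRT84 at 4.22 against 0.0515 and LOC102176726 at 10.0 against 0.206. One KRT35-high cell of 37924 UMIs gave 34.5% of the KRTAP11-1 and 67.5% of the LOC102176726 UMIs, and without it the levels were 7.04 and 3.32. S100A3 had 0 UMIs in the cycling cells, at least 44.3-fold less when 3 UMIs over the group are taken as the floor, or at least 29.1-fold less without the 1 KRT35-high cell that gave 34.5% of its UMIs. The 8 furthest below were the division genes CENPA, NEK2, CDC20, CDK1, CCNB2, CDCA3, MKI67 and CENPW, a direction the choice of cells on 4 division genes fixes.

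Among regulators, LEF1 stood at 1.11 per 10000 in the KRT35-high cells against 0.927 in the cycling cells, BAMBI at 6.56 against 6.63, ID3 at 21.9 against 25.5 and JAG1 at 2.33 against 2.04. HOXC13 stood at 1.67 against 0.772, MSX1 at 0.970 against 1.89 and MSX2 at 0.767 against 1.53. Of 21 listed transcription factors compared, 1 was at least 2-fold higher and 0 lower, beside 5.1% and 7.07% of all genes in that comparison. The keratin neighbour LOC102184693 was at 14.3 against 12.5. MT4 (29.0 against 9.58) and LOC102184223 (103.7 against 15.5) were higher, and KRT36 (6.12 against 0.360) more so. Of 12 BMP genes, 1 was higher and 0 lower. In the hardening list 8 of 20 were higher and 1 lower. Epidermal keratins (4 of 5) and envelope genes (4 of 5) were also at least 2-fold higher, though low in both, with summed levels of 16.2 and 6.39 per 10000 in the cycling cells. The cycling cells were deeper, and the part of depth and free RNA in these differences was not tested.

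KRTAP levels set single cells apart. KRTAP11-1 summed to 4.46 per 10000 (3.55 to 5.52) in CT-LCG and 10.6 (10.1 to 11) in FT-LCG, where 1 cell of 37924 UMIs gave 755 of 2188 UMIs. KRTAP3-1 had 5 UMIs in CT-LCG, all of 1 cell. In FT-LCG it stood at 0.622, or 0.389 without the 1 cell that gave 38.0% of its UMIs. KRTAP15-1 had 0 and 2 UMIs. LOC100861381 and LOC102176726, which lie 2 and 4 genes from KRT38 in the ARS1.2 order among type I hair keratins, summed to 5.15 and 7.14 per 10000 in CT-LCG and 10.8 and 10.0 in FT-LCG. Single cells carried much of this: 1 CT-LCG cell gave 51.0% of the LOC100861381 UMIs and 1 gave 50.4% of those of LOC102176726, with 2.58 and 4.36 per 10000 in the others. In FT-LCG 1 cell gave 42.8% and 67.5%, with 6.29 and 3.32 in the others. Each was seen in 14 cells of CT-LCG, and they were seen in 51 and 42 cells of FT-LCG. The cell with 755 KRTAP11-1 UMIs also held 959 UMIs of LOC100861381, 1403 of LOC102176726, 2617 of LOC102184223 and 869 of MT4, with 118 of KRT35.

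Cells with more KRTAP11-1 per 10000 than any of the chosen ones lay outside the rule. With KRTAP11-1 at 20 or more per 10000 and at least 5 UMIs, limits set after the values were seen, there were 8 cells in CT-LCG, 2 of them chosen, and 22 in FT-LCG, 12 of them chosen. Of the 10 FT-LCG cells outside, none had more than 5 KRT35 UMIs. The one with the most UMIs, 75565, held 5594 KRTAP11-1, 3199 KRTAP3-1, 3434 LOC102184223 and 2874 MT4 UMIs but 1 KRT35 UMI, and gave 64.0% of all KRTAP11-1 UMIs outside the chosen cells. In CT-LCG the 6 cells outside had up to 86 KRTAP11-1 UMIs and up to 7 of KRT35. The ratios of KRTAP genes in FT-LCG moved with a few cells. With the cell of 75565 UMIs among the other kept cells the log2 ratio was 3.33 for KRTAP11-1 and 0.27 for KRTAP3-1, and without it 4.80 and 2.21. KRTAP11-1 was at 2.73 with a KRT35 limit of 40 per 10000 and at 2.60 without the 5% of chosen cells with the most UMIs.

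**Figure D4:**
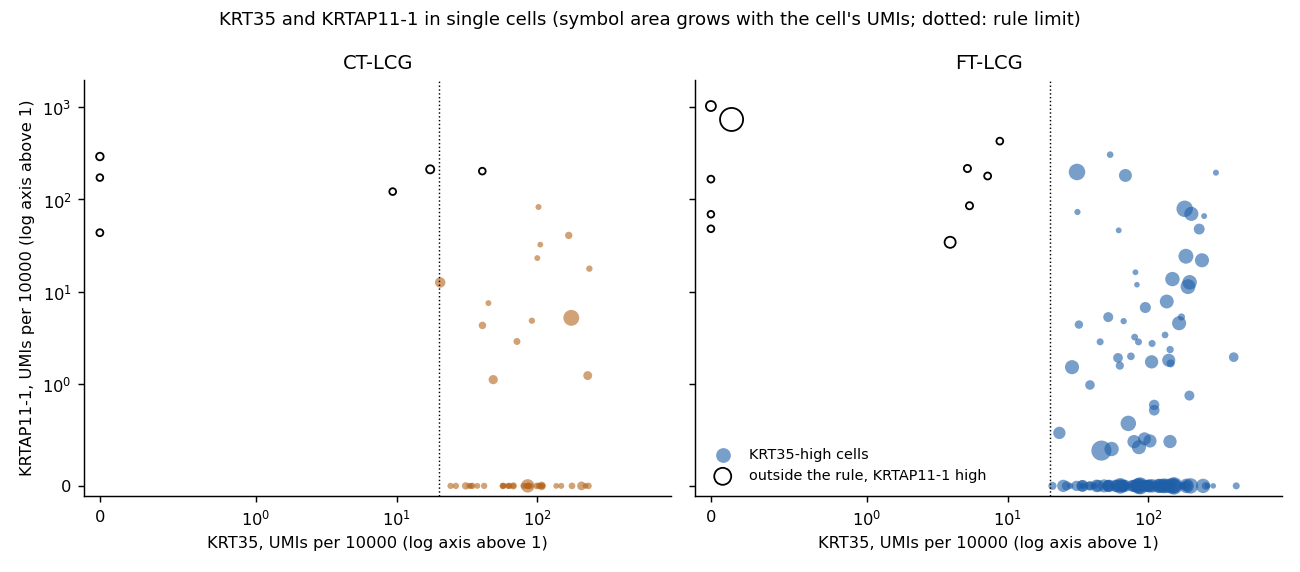
KRT35 (horizontal) and KRTAP11-1 (vertical) in UMIs per 10000, both on axes that are logarithmic above 1, for each KRT35-high cell (filled) and each cell outside the rule with KRTAP11-1 at 20 or more per 10000 and 5 UMIs (open), with symbol area growing with the cell's UMIs and a dotted line at the KRT35 limit of 20. Most chosen cells lie at 0 KRTAP11-1, 12 chosen FT-LCG cells have high KRTAP11-1, and the cells with the most KRTAP11-1 lie left of the limit. The CT-LCG cell right of it had 4 KRT35 UMIs.

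The order of these cells by KRTAP11-1 can be laid out as values. In FT-LCG, LOC102184223 stood at 76.8 per 10000 in the 129 chosen cells below the KRTAP11-1 limits, at 350.6 in the 12 chosen cells above them and at 393.0 in the 10 cells outside the rule (246.4 without the one of 75565 UMIs). KRT35 stood at 105.0, 153.4 and 0.933 (2.84 without that cell) in the same order, the last by the rule. SELENBP1 was at 32.3, 13.2 and 0.466 (1.58 without that cell), and LOC102184693 at 15.4, 3.77 and 0.746 (2.21 without that cell). MT4 was at 22.7, 86.8 and 300.2 (109.0 without that cell). FOXQ1, a forkhead factor known from the hair medulla, was at 2.32 in the 129 cells and at 0 UMIs in the 12. Of 3 medulla and companion layer markers compared with all other kept cells, FOXQ1 alone was at least 2-fold higher in FT-LCG (2.09 against 0.550). The other 2 were at least 2-fold lower there, and in CT-LCG all 3 were, with FOXQ1 at 0.0537 (1 UMI) against 0.269. Of all genes compared, 8.91% were higher and 26.4% lower in FT-LCG, and 21% were lower in CT-LCG. In CT-LCG, with 46, 2 and 6 cells, LOC102184223 was at 127.3, 377.5 and 347.8, MT4 at 35.6, 70.2 and 118.6, SELENBP1 at 28.3, 26.7 and 1.80, and LOC102184693 at 10.5, 3.34 and 0. The cells outside varied widely. LOC102184223 ran over the 10 FT-LCG cells from 0 through a median of 236.8 to 898.4 per 10000, 5 of them below the median of the chosen cells, and MT4 from 0 through 43.9 to 380.3. Over the 6 CT-LCG cells LOC102184223 ran from 97.3 through 265.8 to 516.3. These sets were made from their own values and are no test.

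Correlations across the KRT35-high cells, over 48 cells for CT-LCG and 141 for FT-LCG that share a library, free RNA and a wide range of depth, are given as descriptions. The summed KRTAP level took in only the 3 genes listed under KRTAP symbols and is no score of the whole family. KRTAP11-1 gave 83 of its 88 UMIs in CT-LCG and 2188 of 2319 in FT-LCG. Of 1484 genes with a UMI in at least 20% of the cells in each library, the 8 that rose most with the summed KRTAP level were EFHD1 (rho 0.39 and 0.44), LOC102176726 (0.37 and 0.42), LOC100861381 (0.34 and 0.38), TUBA1A (0.39 and 0.33), LOC102185436 (0.25 and 0.40), CST6 (0.27 and 0.24), MGST3 (0.24 and 0.25) and PKP3 (0.22 and 0.31). After thinning to 1000 UMIs, TUBA1A had 0.09 and 0.11 and PKP3 0.06 and 0.16. CST6 fell with depth (rho -0.28 and -0.60 with the number of UMIs). The 8 that fell most included PTMA (-0.25 and -0.22), SRSF7 (-0.19 and -0.22) and SELENBP1 (-0.21 and -0.18), and the other 5 were LOC features with rho between -0.17 and -0.32. After thinning LOC102168235 had -0.06 and -0.05, LOC102178813 -0.33 and -0.03, and LOC102190909 -0.11 and -0.22. All of these values were weak, and since most cells held 0 KRTAP UMIs they mainly split cells with from cells without.

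Pairs of abundant genes gave larger values. LOC102184223 went with KRT35 (rho 0.63 and 0.57) and with MT4 (0.65 and 0.59), and after thinning to 1000 UMIs these were 0.57 and 0.49, and 0.66 and 0.50. LOC102184693 went with SELENBP1 (0.37 and 0.39, thinned 0.16 and 0.24) and against KRTAP11-1 in FT-LCG (-0.37, thinned -0.32), where CT-LCG gave -0.12. FOXQ1, found in 39 FT-LCG cells at 2.09 per 10000 and in 1 CT-LCG cell, went against LOC102184223 in FT-LCG (-0.48, thinned -0.33) and with CEBPB (0.36, thinned 0.27). LEF1 and HOXC13 went together in both (0.36 and 0.29), but in FT-LCG this fell to 0.06 after thinning. These pairs were chosen after the values were seen. Besides KRT10, given above, KRT14 fell with depth (rho -0.49 and -0.50 with the number of UMIs).

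**Figure D5:**
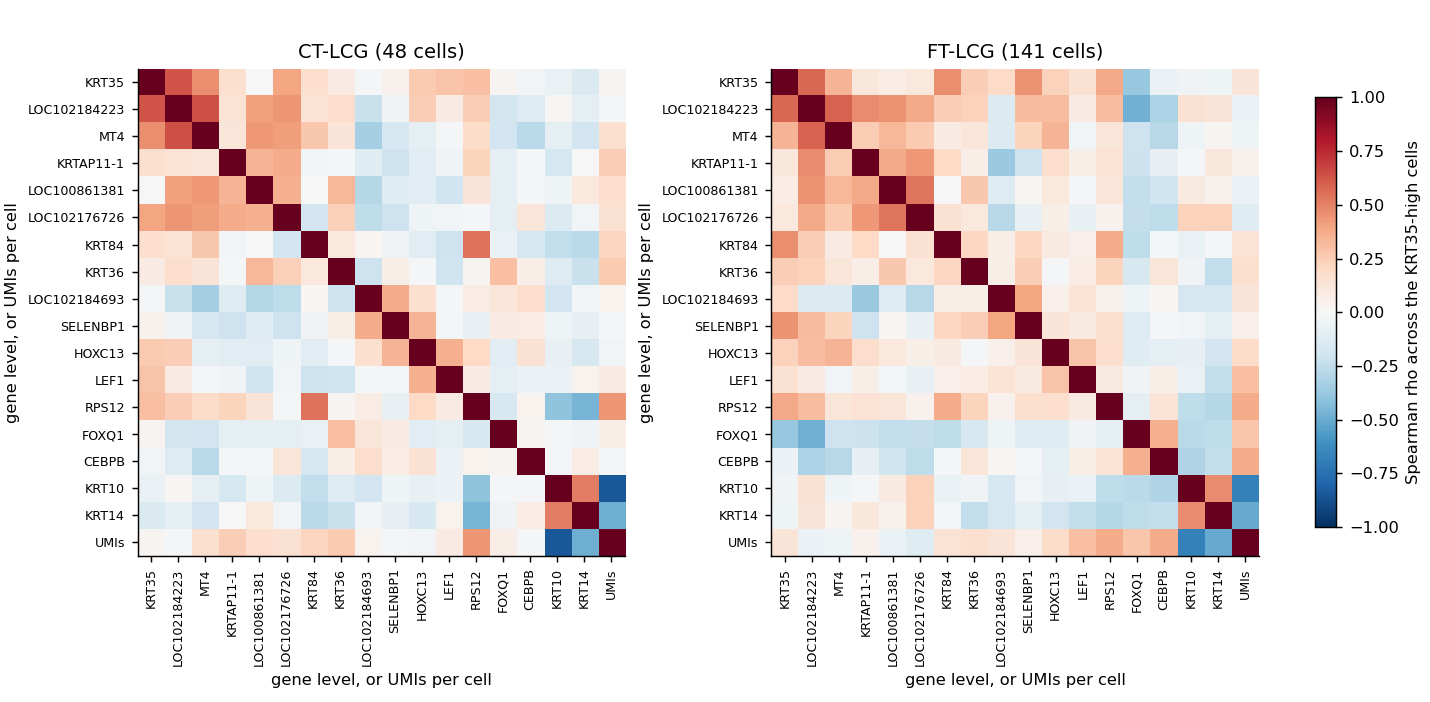
Spearman rho between the levels of 17 genes, and the number of UMIs per cell, across the KRT35-high cells of CT-LCG (left, 48 cells) and FT-LCG (right, 141 cells), from -1 (blue) to 1 (red). KRT35, LOC102184223 and MT4 form a red block at the upper left in both libraries, LOC102184693 and SELENBP1 form a pair apart from KRTAP11-1, and KRT10 is blue against UMIs.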

How the data were processed

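The deposited matrix held UMI counts per gene and cell, made by the authors with Cell Ranger (version 3.0.2 in the file header) for 17299 barcodes. The goat genome build is not given in the sources used here. Per the study's methods cells were kept with Seurat (3.1.1) at a limit of 500 genes and a ceiling on the mitochondrial share. Their deposited cell table names a library for each of 13051 kept cells, and its names and the barcode and gene lists are other text, not measurements. The members and gene lists were chosen with earlier results of these data known. Kept cells totalled 27890472 UMIs for CT-LCG and 85400323 for FT-LCG.

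UMIs were summed over cells per library and given per 10000. Log2 ratios had 0.5 UMI added to each sum, genes needed 50 UMIs over both kinds of cells, and 2-fold was the limit for higher or lower. Named genes were the 15 highest and 10 lowest against all other kept cells, and 8 each way against the other follicle populations and along the KRTAP level, ranked by the value nearer to 0 of the libraries. For the cycling KRT35 cells the rank used FT-LCG alone, because CT-LCG had 2 such cells. Poisson and Clopper-Pearson intervals (95%) cover counting error only. With 1 library per goat there is no replicate, so no test was run. The log2 ratio, for genes with many UMIs in the other cells, and the thinning were tried on simulated counts. Genes near the limit of 50 UMIs and the correlations were not. Of 27137 features, 27103 matched the RefSeq table of ARS1.2, which served for gene order only. Of 6 repeated symbols the first feature was used. Python 3.11.15, numpy 2.4.6, scipy 1.17.1, pandas 2.3.3 and matplotlib 3.10.9 were used. Settings varied were the KRT35 limits, the division limit, the gene filter, thinning, means over cells, free RNA, deep cells and cells with UMIs of other types.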

Additional observations from a re-analysis of the deposited data

Results flagged for a closer look

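Of 2659 CT-LCG barcodes outside the kept list, 9 met the rule, and of 1589 in FT-LCG, 10 did, shares of 0.338% (exact 95% binomial interval 0.155 to 0.642) and 0.629% (0.302 to 1.15). They entered no comparison, and drew attention because a count of 0 would have allowed shares of up to 0.113% and 0.189%. They were shallow, with medians of 777 and 706.5 UMIs. LOC102184223 summed to 108.4 per 10000 (77 UMIs) and 145.9 (104 UMIs) in them, and MT4 to 23.9 and 67.3.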

How the results depend on the processing

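The number of cells chosen was 35 in CT-LCG with at least 10 KRT35 UMIs, and 105 in FT-LCG without cells holding 3 UMIs of other types. In CT-LCG the count of genes at least 2-fold higher than in all other kept cells was 1050 after thinning to 1000 UMIs, 1038 with at least 200 UMIs per gene, 4666 with at least 10, and 297 with 5 expected among the chosen cells, and in FT-LCG it was 799, 1900 and 793 under the last 3 of these. Lower genes numbered 1479 after thinning and 1095 with 5 UMIs expected in CT-LCG, and 2331 after thinning in FT-LCG. The log2 ratio of KRTAP3-1 in FT-LCG turned to -0.19 with a KRT35 limit of 40 per 10000 and to -0.13 without the 5% of chosen cells with the most UMIs. The rho of LOC102184223 with the KRTAP level was 0.13 for CT-LCG and 0.43 for FT-LCG, and 0.63 and 0.57 with the KRT35 level in its place. The ratios of KRTAP11-1, MT4, LOC102184223, LEF1 and HOXC13 kept their sign in both libraries under every alternative that tested them; LEF1, HOXC13 and KRTAP3-1 of CT-LCG fell under the filters of 200 UMIs and of 5 UMIs expected and were not tested by these. The cause of the moves beyond fewer genes or cells was not tested. In CT-LCG the ratios rest on 186262 UMIs. Limits set by 5 UMIs expected, by leaving DCN out of the other types and by leaving out the cell with the most KRTAP11-1 UMIs were chosen after seeing the data. No paired analysis was possible because each goat gave 1 library.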
